A study of Mus musculus with 20 samples.

Results

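The 9 genes described here encode the MHC class II presentation machinery of the mouse: *H2-Aa*, *H2-Ab1*, *H2-Eb1*, *Cd74*, *Ciita*, *H2-DMa*, *H2-DMb1*, *H2-Oa* and *H2-Ob*. They were chosen by gene symbol, and each matched a single row of the 31053 gene rows in the expression matrices. Their levels were followed through dendritic cells, macrophages, monocytes, B cells, endothelial cells and stromal cells of interscapular brown adipose tissue (iBAT) profiled by droplet scRNA-seq. The study collected 20 libraries from 10 experiments, with a lineage-positive (Lin+) and a lineage-negative (Lin-) library from each. Magnetic sorting with antibodies to CD5, CD11b, CD45R (B220), Gr-1, 7-4 and Ter-119 made the separation, so dendritic cells without these antigens could also pass into Lin-.

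In 6 experiments the mice were C57BL/6J males, 2 experiments per group: kept at room temperature, 24 °C (RT), at 6 °C for 4 days (COLD), or at room temperature with the β3-adrenergic agonist CL316,243 infused at 0.75 nmol/h for 4 days (CL). In the other 4 experiments the mice were females with floxed *Adrb1*, either without (WT) or with (KO) Pdgfra-CreER, which drives recombination in *Pdgfra*+ stromal cells after tamoxifen. All mice of that line, WT included, received tamoxifen, and each genotype had 1 RT and 1 COLD experiment. Mice were 8 to 14 weeks old, and cells of 3 or 4 animals were pooled for each library, so the spread between libraries is a spread between pools. The Adrb1-line RT libraries were made with version 3 of the 10x kit and all others with version 2, so kit and temperature cannot be told apart in that line. *Adrb1* itself had 12 and 43 counts in stromal cells of the WT RT and WT COLD libraries, 7 in KO COLD, and 0 in KO RT, a count that allows up to 3.

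Of 156759 barcodes, 126274 passed the filters, 59935 of them Lin+ (2424 to 10250 per library) and 66339 Lin- (2427 to 12894). Libraries held 9388617 to 41979839 counts in Lin+ and 7857161 to 31325801 in Lin-. The Lin+ and Lin- libraries of CL replicate 2 shared 1098 barcodes, 17.1% of the smaller library, against a median of 0.858% over all pairs of libraries. No count of called members changed when those barcodes were left out. In the Lin- library of RT replicate 2, 72.0% of barcodes were over the mitochondrial limit and 28.0% were kept, against 57.7% to 96.2% kept in the other Lin- libraries. The pair of Lin+ CL libraries differed in their macrophages, as described with the macrophage types.

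MHC class II molecules carry peptides from endocytosed proteins to the cell surface, where CD4+ T cells read them. The α and β chains assemble in the endoplasmic reticulum with the invariant chain, which blocks the groove and directs the complex to endosomes. There proteases trim the invariant chain, H2-DM exchanges its last fragment for peptide, and H2-O restrains H2-DM. The class II genes share an upstream control module of X and Y boxes, bound by RFX and NF-Y factors, onto which the coactivator CIITA assembles. Dendritic cells, B cells and activated macrophages are the professional presenting cells, and endothelial and stromal cells can acquire class II under interferon-γ.

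Of the 9 members, 7 lie within 224 kb of mouse chromosome 17 (GRCm38, positions 34092340 to 34316674), the class II region of the H2 complex. In this build the α chain gene *H2-Aa* (ENSMUSG00000036594) is at chr17:34282744-34287823 on the minus strand. Its partner *H2-Ab1* (ENSMUSG00000073421) is at chr17:34257689-34269419 and *H2-Eb1* (ENSMUSG00000060586) at chr17:34305867-34316674, both on the plus strand, and all 9 members are protein coding. *Ciita* (ENSMUSG00000022504) is at chr16:10480059-10528418.

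Promoters are shown because most members are known targets of CIITA through this module. The data hold no measurement of binding, and no link between these letters and a change in level was tested. RefSeq promoter windows (GRCm38.p6) were matched for 6 of the 8 members looked up, with 7 windows in all because *H2-DMa* had 2 start sites. Windows were searched for GNAAC (core letters of an X box) followed within 40 bases by ATTGG (the Y box, the reverse complement of CCAAT). The pair was found in 5 windows, those of *H2-Aa*, *H2-Eb1*, *H2-Ob*, *H2-Oa* and *H2-DMb1*, with 25 to 28 bases between the motifs. Of 32851 promoter windows of the same length, 5.19% held this pair on either strand, 79.6% held GNAAC and 33.8% held CCAAT. The 130 bases before the start site are printed for an α chain, a β chain and a subunit of H2-O, with GNAAC and ATTGG in capitals. They lie at chr17:34287824-34287953 (*H2-Aa*, minus strand), chr17:34305737-34305866 (*H2-Eb1*, plus strand) and chr17:34238775-34238904 (*H2-Ob*, plus strand).
H2-Aa: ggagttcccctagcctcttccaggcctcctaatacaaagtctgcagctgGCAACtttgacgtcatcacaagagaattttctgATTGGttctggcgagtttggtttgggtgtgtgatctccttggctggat
H2-Eb1: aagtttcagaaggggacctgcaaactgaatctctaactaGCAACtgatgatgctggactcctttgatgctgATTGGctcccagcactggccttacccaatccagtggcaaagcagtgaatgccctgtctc
H2-Ob: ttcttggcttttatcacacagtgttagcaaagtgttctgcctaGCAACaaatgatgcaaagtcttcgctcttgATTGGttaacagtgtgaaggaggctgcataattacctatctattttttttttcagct
The ATTGG copy began 48 bases before the start in *H2-Aa*, 59 in *H2-Eb1* and 57 in *H2-Ob*. A match of letters does not show that a factor binds there.

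Cells were clustered without the members and named from marker genes, as macrophages (MAC), dendritic cells (DEND), monocytes (MONO) and B cells (Blym) in Lin+, and as vascular endothelial cells (VEC), adipose stromal cells (ASC1 to ASC3), Schwann cells, pericytes, smooth muscle cells of vessels (VSMC) and a further DEND cluster in Lin-. Corrected counts were summed over the cells of a class in each library and are given as CPM, scaled to all counts of that class. The 8 macrophage markers summed to between 8659 and 14850 CPM in MAC and between 281.2 and 500.2 CPM in DEND of the C57 libraries. Dendritic cell markers were less well separated. The 5 of them summed to 290.8 to 377.4 CPM in DEND, 188.5 to 250.6 CPM in Blym and 27.94 to 75.95 CPM in MAC. The 5 monocyte markers summed to 938.7 to 2405 CPM in DEND and 8153 to 16530 CPM in MONO. Differences between groups are log2 fold changes from edgeR's quasi-likelihood test over all genes of a class, and a gene is called at an adjusted p under 0.05.

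In MAC, 8 of the 9 members were lower in COLD than at RT, and none was called in DEND, MONO or Blym. Without RT replicate 2, 4 members were called. The chain genes, *Cd74*, *Ciita*, the peptide exchange genes and *H2-Ob* were lower, with log2 differences from -2.46 to -1.57. Their 95% confidence intervals overlapped, and differences between members were not tested. MAC at RT and in COLD were mostly different macrophage types, as described below, so these are differences between the classes as a whole. The change came in a class that changed widely: 35.1% of the 11647 genes tested in MAC were called, 17.5% as lower. The median log2 difference was -2.12 over the 9 members and -0.0189 over all genes.

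*H2-Ab1*, the I-A β chain, was at 10880 and 15490 CPM in MAC of the 2 RT libraries, at 2851 and 3028 CPM in COLD, and at 2714 and 7426 CPM in CL. Both COLD libraries lay below both RT libraries, with no overlap. With 2 libraries per group such separation is often met without a true difference, so here and below it describes the values only. The share of all genes that separated was not counted. The log2 difference between COLD and RT was -2.12 (SE 0.465, edgeR adjusted p = 0.00768). The I-A α chain gene *H2-Aa* was at 11110 and 15230 CPM at RT and at 2668 and 2912 CPM in COLD, a log2 difference of -2.19 (SE 0.476, edgeR adjusted p = 0.00735). *H2-Eb1*, the β chain of I-E, was at 9891 and 12930 CPM at RT and at 1904 and 2127 CPM in COLD. Its log2 difference of -2.46 (SE 0.483, edgeR adjusted p = 0.00476) had a 95% confidence interval of -3.4 to -1.51. The C57BL/6 haplotype does not make I-E protein because the I-E α chain gene is defective, so *H2-Eb1* is here a transcript readout only.

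*Cd74* (ENSMUSG00000024610, chr18:60803848-60812652, plus strand), the invariant chain that chaperones new class II molecules, was at 25980 and 35190 CPM at RT and at 5639 and 5555 CPM in COLD. The log2 difference was -2.41 (SE 0.481, edgeR adjusted p = 0.00509). *Ciita*, the coactivator on which transcription of the class II genes depends, was at 96.4 and 179.8 CPM at RT and at 27 and 33.5 CPM in COLD. It was lower by 2.15 on the log2 scale (SE 0.402, edgeR adjusted p = 0.00381). As for the chain genes, the RT and COLD libraries did not overlap.

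**Figure D1:**
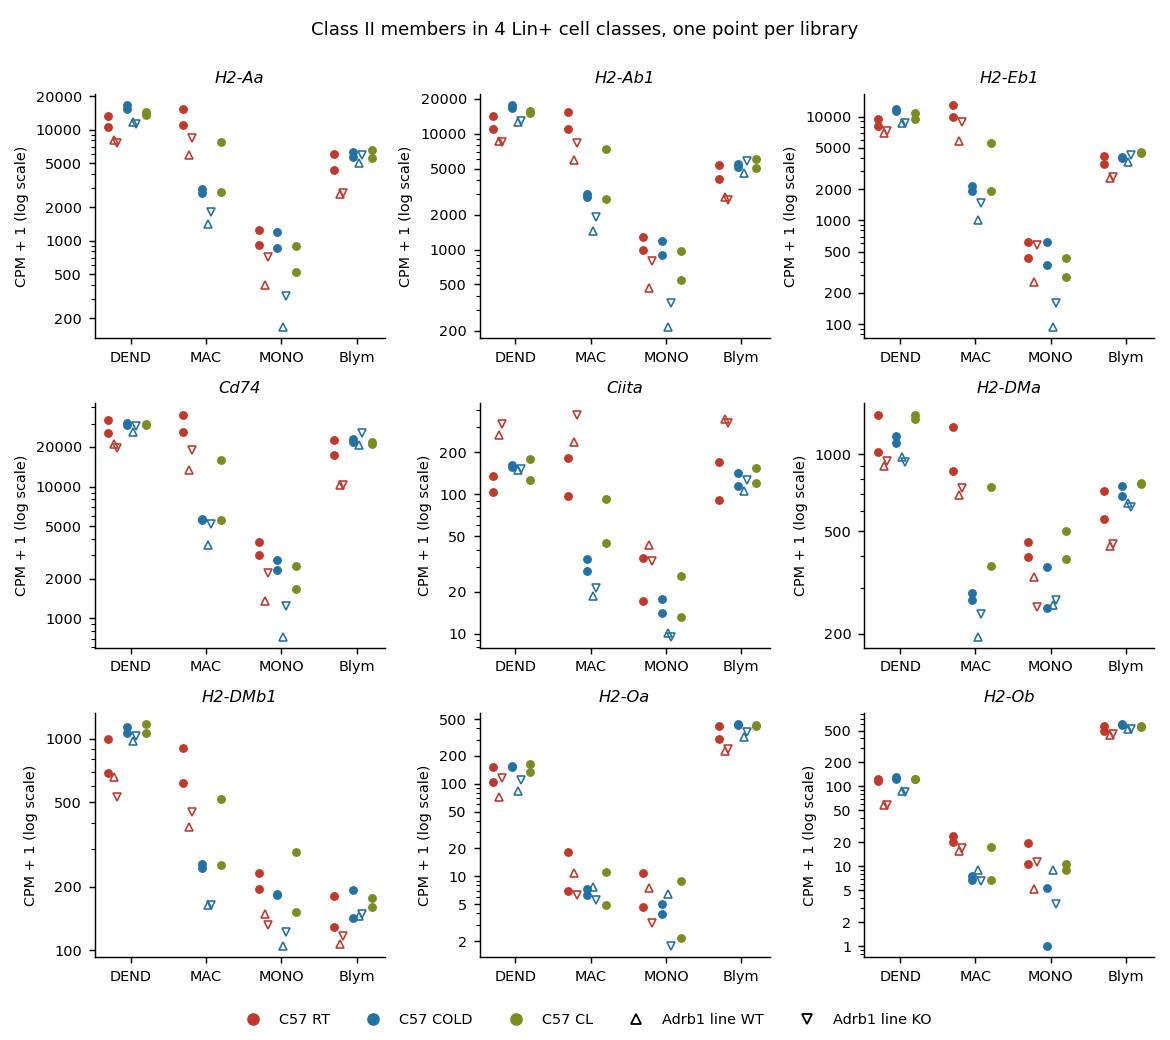
Level of each of the 9 members in DEND, MAC, MONO and Blym of the Lin+ libraries, as CPM + 1 on a log axis, with 1 point per library and colours for RT, COLD and CL. In MAC the 2 C57 COLD points of *H2-Ab1* (2851 and 3028 CPM) lie below the RT points (10880 and 15490 CPM), while in DEND all C57 points lie between 10950 and 17620 CPM.

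The H2-DM genes, whose product loads peptide, were lower in COLD too. *H2-DMa* was at 857.0 and 1271 CPM in MAC at RT and at 270.2 and 287.5 CPM in COLD, a log2 difference of -1.89 (SE 0.367, edgeR adjusted p = 0.0045). *H2-DMb1* was at 618.4 and 905.5 CPM at RT and at 242.6 and 253.7 CPM in COLD, a log2 difference of -1.57 (SE 0.361, edgeR adjusted p = 0.0095). *H2-DMb1* has a close paralogue, *H2-DMb2*, and reads from shared stretches may be split between them.

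The H2-O genes, whose product inhibits H2-DM, were at low levels in MAC. *H2-Ob* was at 19.4 and 23.2 CPM at RT and at 5.68 and 6.52 CPM in COLD, and was called lower (log2 difference -1.77, SE 0.448, edgeR adjusted p = 0.0145). *H2-Oa* was at 5.91 and 17.5 CPM at RT and at 5.22 and 6.39 CPM in COLD. It was the member that did not pass (log2 difference -1.02, SE 0.532, edgeR adjusted p = 0.161).

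The share of macrophages with a count of *H2-Ab1* in COLD lay below that at RT, with no overlap. At RT, 96.0% and 97.6% of MAC cells had a count of *H2-Ab1*, against 34.2% and 33.9% in COLD and 47.7% and 89.0% in CL. The COLD cells were sequenced more deeply, with median counts per cell of 5231 and 5846 against 2972 and 3521 at RT. After every cell was thinned to 1000 counts the shares were 95.1% and 97.6% at RT and 30.7% and 30.6% in COLD. T cells, which should lack class II, had an *H2-Ab1* count in 3.42% to 22.2% of cells, at median counts per cell of 1083 to 2365.

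Neutrophils and T cells, which should lack class II, also held its transcripts. In neutrophils *H2-Ab1* was at 1231 and 1244 CPM at RT and at 298.2 and 303.4 CPM in COLD, levels below those of MAC in each group. It was called lower in COLD there, with a log2 difference close to that in MAC, as given below. In T cells *H2-Ab1* was at 427.8 and 467.5 CPM at RT and 609.1 to 1399 CPM in COLD (log2 difference 0.85, edgeR adjusted p = 0.417, not called). The T cell difference in the cold over all experiments changed sign when high doublet scores were removed. Summed B cell markers within MAC were at 390.0 to 425.2 CPM at RT and 93.8 to 93.9 CPM in COLD, with none of the 5 markers at 0. Summed neutrophil markers within MAC were at 715.4 to 980.4 CPM at RT and 102.2 to 199.2 CPM in COLD, and summed monocyte markers went the other way, from between 737.8 and 1252 CPM to between 1944 and 2245 CPM. The part of RNA from other cells in the MAC result was not tested.

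When the RT and COLD libraries of the Adrb1 line were added, with line as a term, the same 8 members were called lower in MAC, against 50.9% of all genes called and 25% as lower. *H2-Ab1* in MAC was at 5951 (WT) and 8340 (KO) CPM at RT and at 1456 and 1908 CPM in COLD. Every RT library of the series thus lay above every COLD library for this gene in MAC. In that fit the log2 difference of *H2-Ab1* was -1.82 (SE 0.300, edgeR adjusted p = 0.00151) and that of *Ciita* -2.76 (SE 0.327, edgeR adjusted p = 0.000405). For *Ciita* the kit stands beside the difference: at RT its MAC level was 234.6 and 369.9 CPM in the version 3 libraries and 96.4 and 179.8 CPM in the version 2 libraries. In Blym, *Ciita* was at 321.3 and 345.7 CPM at RT with version 3, and at 89.4 to 169.2 CPM in all version 2 libraries.

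With CL, all 9 members had lower fitted levels in MAC than at RT, and none was called by edgeR or by DESeq2. Of the 9, 7 had an unadjusted p under 0.05 and the smallest adjusted p was 0.0754, in a class where 6.16% of all genes were called. The CL replicates differed: *H2-Ab1* was at 2714 CPM in replicate 1, close to the COLD levels, and at 7426 CPM in replicate 2, nearer RT. *Ciita* was at 43.8 and 92.0 CPM and *Cd74* at 5602 and 15960 CPM in the same libraries. With the replicate number as a block, 7 members were called lower in CL (smallest edgeR adjusted p = 0.00836). In that fit 1458 of the 11647 genes tested were called, 694 of them as lower. The count of members also moved without CL replicate 2, as given with the processing.

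COLD and CL were also compared directly in MAC, and no member was called by edgeR or DESeq2 (2 with an unadjusted p under 0.05), against 7.07% of all genes. With the replicate block 1 member was called, against 1390 of the 11647 genes tested. The count of members also moved without CL replicate 1, as given with the processing. The median log2 difference between COLD and CL over the members was -0.906.

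**Figure D2:**
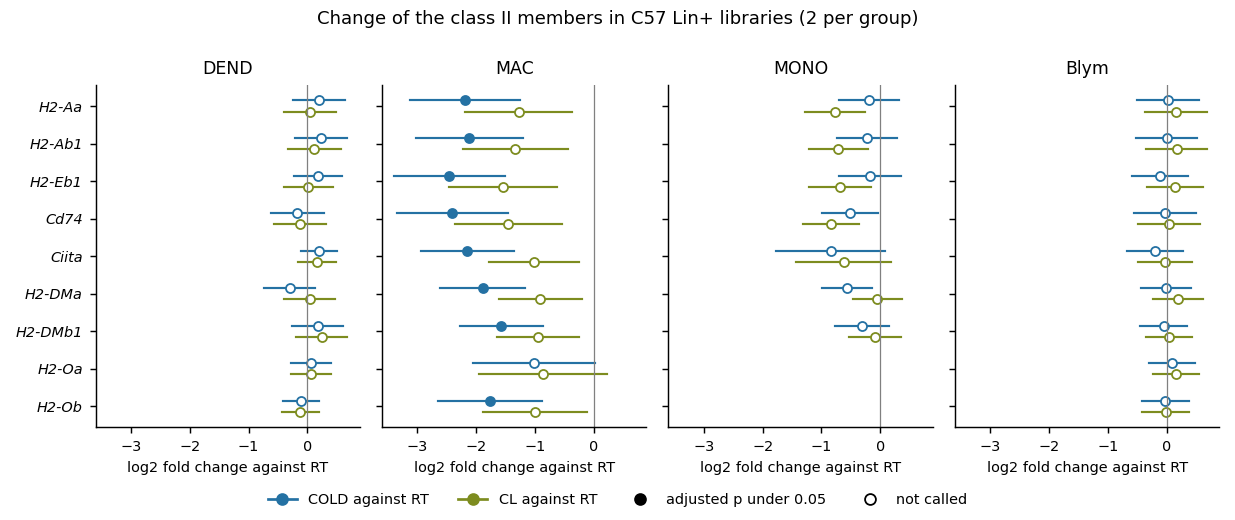
Log2 fold change of each member in COLD and CL against RT in 4 Lin+ classes of the C57 libraries (2 per group). Bars give the 95% confidence interval (normal limits from the SE), and filled points mark members called at an adjusted p under 0.05. All filled points are COLD against RT in MAC, between -2.46 (*H2-Eb1*) and -1.57 (*H2-DMb1*), and the intervals in DEND and Blym cross 0.

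Macrophages were resolved into 4 types: MAC1 (marked by *Gpnmb* and *Trem2*), MAC3 (*Clec4d*, *Clec4e*), and a pair of MAC2 clusters set apart by *Mgl2* and by *Lyve1*. The MAC3 cluster also raised all 5 monocyte markers. At RT, MAC2 (Mgl2) made up 70.7% and 79.8% of MAC cells and held 75.5% and 83.7% of their *H2-Ab1* counts. In COLD it made up 0.983% and 1.34%, and MAC1 (57.1% and 59.2%) and MAC3 (39.6% and 37.8%) took its place. The first CL library was led by MAC2 (Lyve1), 40.9%, and MAC1, 37.6%, and the second by MAC2 (Mgl2), 42.4%.

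Members also differed between COLD and RT within types. DESeq2 was not run on single types. In MAC2 (Lyve1), 6 of 7 tested members were lower in COLD (4.42% of all genes). The sums of this type rested on 122 and 66 cells at RT, 83 and 35 in COLD and 1264 and 167 in CL. *H2-Ab1* there was at 7821 and 12510 CPM at RT and at 2086 and 303.1 CPM in COLD, a log2 difference of -3.24 (SE 0.678, edgeR adjusted p = 0.0106). *Cd74* differed by -3.50, *H2-Aa* by -3.48, *H2-Eb1* by -3.45, *H2-DMa* by -2.29 and *H2-DMb1* by -2.04 on the log2 scale. *Ciita* in the same cells differed by -2.25 and missed the threshold (edgeR adjusted p = 0.0518). With the replicate block, however, all 7 tested members were called lower, against 289 of 4953 genes. In CL, *H2-Eb1* and *H2-DMb1* were called lower in this type, where 3.21% of genes were called lower. With the replicate block 6 members were called lower in CL, against 226 of 4953 genes. *H2-Eb1* there was at 6341 and 9022 CPM at RT and at 937.5 and 2335 CPM in CL, and *H2-DMb1* at 349.0 and 527.3 CPM and at 145.3 and 217.3 CPM.

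In MAC3, 4 of 9 members were lower in COLD (5.27% of all genes) and all 9 had an unadjusted p under 0.05. The 4 were *Cd74* (log2 difference -1.09), *Ciita* (-1.35), *H2-DMa* (-1.30) and *H2-Ob* (-2.06). With the replicate block 6 members were called lower, against 682 of 8527 genes. *H2-Ab1* was at 8644 and 8861 CPM at RT and at 4467 and 6229 CPM in COLD in MAC3, with no overlap, but did not pass (log2 difference -0.81, SE 0.299, edgeR adjusted p = 0.109).

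MAC2 (Mgl2) was left with 35 and 29 cells in COLD. *H2-Ab1* in these was at 8090 and 10870 CPM, against 12150 and 17360 CPM at RT, and 71.4% and 89.7% of the cells had a count of it. No member was called by edgeR (6 with an unadjusted p under 0.05), against 0.169% of all genes. The log2 difference of *H2-Ab1* was -0.87, with a 95% confidence interval from -1.63 to -0.113. MAC1 could not be fitted because an RT library held 13 of its cells; its *H2-Ab1* level was 7960 CPM in the other RT library and 2002 and 1239 CPM in COLD.

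**Figure D3:**
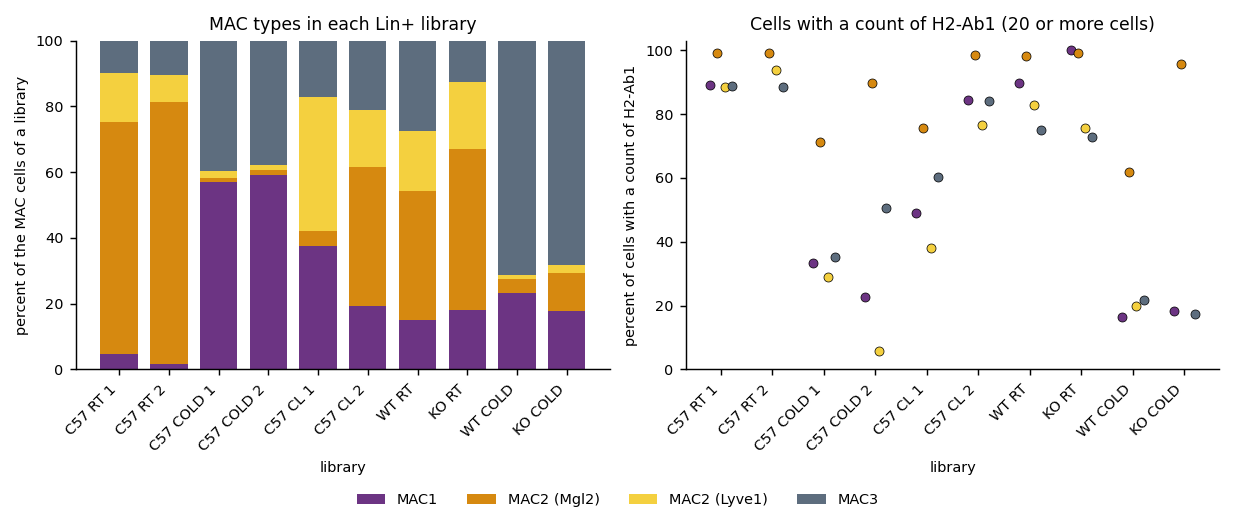
Left, the share of each macrophage type among MAC cells of every Lin+ library (stacked bars, percent). Right, the percent of cells with a count of *H2-Ab1* in each type and library with 20 or more cells: at RT all C57 points lie at 88.5% or above, and in C57 COLD the MAC2 (Mgl2) points (71.4% and 89.7%) lie above those of the other types.

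No member was called in the DEND class as a whole under either treatment. In its small type DEND4, *H2-Ab1* and *H2-Eb1* were called lower in COLD, as described below. *H2-Ab1* in DEND was at 10950 and 14280 CPM at RT, 16730 and 17620 CPM in COLD and 15810 and 15000 CPM in CL. None of the 9 members was called in COLD by edgeR (none with an unadjusted p under 0.05) or by DESeq2, while 10.1% of the 9560 genes tested in DEND were. The log2 difference of *H2-Ab1* was 0.23 with a 95% confidence interval from -0.211 to 0.677, an interval that does not reach the difference in MAC. *Ciita* was at 103.1 and 134.7 CPM at RT and at 155.3 and 161.1 CPM in COLD, a log2 difference of 0.20 (95% confidence interval -0.114 to 0.512). With CL none was called either by edgeR (none with an unadjusted p under 0.05) or by DESeq2, against 0.188% of all genes. Between 92.0% and 93.8% of DEND cells had an *H2-Ab1* count in each of the 6 C57 libraries.

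The difference between the classes was itself tested, with the library as a block. The COLD response of DEND minus that of MAC was called for 8 of 9 members (18.4% of all genes), and was 2.41 on the log2 scale for *H2-Ab1* (SE 0.309, edgeR adjusted p = 6.97e-05). For CL, 7 of 9 members differed between DEND and MAC (3.6% of all genes). That CL count fell most when an RT library was left out, as given with the flagged results. Monocytes differed from macrophages in their COLD response in 6 of 9 members (10.2% of all genes) and in their CL response in none by edgeR (5 with an unadjusted p under 0.05, 2.36% of all genes), but in 7 of 9 without CL replicate 2. The share of MONO cells with an *H2-Ab1* count overlapped that of neutrophils, as described below, and the part of RNA from other cells in it was not tested.

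The types of DEND differed in the balance of the machinery. DEND1 carried the cDC1 markers *Xcr1* and *Clec9a*, DEND2 the markers *Cd209a* and *Clec10a*, DEND3 the markers of mature migratory cells *Ccr7* and *Fscn1*, and DEND4 the plasmacytoid markers *Siglech* and *Ccr9*. Median *H2-Ab1* over libraries was 15200 CPM in DEND1, 14580 CPM in DEND2, 7582 CPM in DEND3 and 2256 CPM in DEND4. DEND3 combined high chain and *Cd74* transcripts with little H2-DM: *H2-DMa* had a median of 238.6 CPM there, against 1320 CPM in DEND1 and 1157 CPM in DEND2. For every 100 counts of *H2-Ab1* there were 2.80 of *H2-DMa* in DEND3 (range 1.81 to 4.74 over 8 libraries), 8.73 in DEND1 (7.69 to 11.5) and 27.2 in DEND4 (18.7 to 57.9), so these ranges did not overlap. DEND3 also had more *H2-Aa* per 100 *H2-Ab1* (median 155, range 140 to 171) than DEND1 (85.6, range 74.7 to 94.6).

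By treatment, *H2-Ab1* in DEND1 was at 11450 and 14830 CPM at RT against 17160 and 17800 CPM in COLD, and in DEND2 at 12510 and 16330 CPM and then 18600 and 20210 CPM. The groups did not overlap in either type, with COLD higher, which describes the 2 libraries of each group only. No member was called in either type by edgeR (none with an unadjusted p under 0.05). The background was 4.34% of all genes in DEND1 and 7.82% in DEND2. *H2-Ab1* in DEND3 was at 6066 and 6290 CPM at RT, 12990 and 12890 CPM in COLD and 7620 and 6940 CPM in CL. The COLD libraries stood above the others, but no member was called by edgeR, against 4.15% of all genes. Of the 9, 4 had an unadjusted p under 0.05, and the log2 difference of *H2-Ab1* was 0.85 (edgeR adjusted p = 0.0762). In DEND4, 2 members were called lower in COLD, *H2-Ab1* (log2 difference -1.64) and *H2-Eb1* (-2.06) (0.531% of all genes called lower). These cells were few, 4 to 74 per library, and at the finer clustering both differences were positive (0.345 and 0.511) and not called.

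B cells had the highest H2-O transcripts of the classes. *H2-Oa* was at 301.3 and 419.4 CPM in Blym at RT, 442.6 and 427.6 CPM in COLD and 435.1 and 416.2 CPM in CL. *H2-Ob* was at 495.0 and 567.7 CPM at RT and at 582.5 and 606.8 CPM in COLD. For every 100 counts of *H2-DMa*, Blym held 55.4 of *H2-Oa* (range 49.9 to 64.4 over 10 libraries), against 8.76 in DEND1 (4.50 to 10.5), 11.8 in DEND2 (8.65 to 17.4), 30.6 in DEND3 (20.6 to 47.3) and 0.807 in MAC2 (Mgl2) (up to 3.63). The range of Blym lay above those of all DEND and MAC types. The chain transcript *H2-Ab1* was at 4080 and 5340 CPM at RT and at 5201 and 5477 CPM in COLD in Blym, overlapping between groups. None of the 9 members was called in Blym in COLD or CL by edgeR (none with an unadjusted p under 0.05 in either) or DESeq2, with 0.283% and 0.209% of all genes called.

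**Figure D4:**
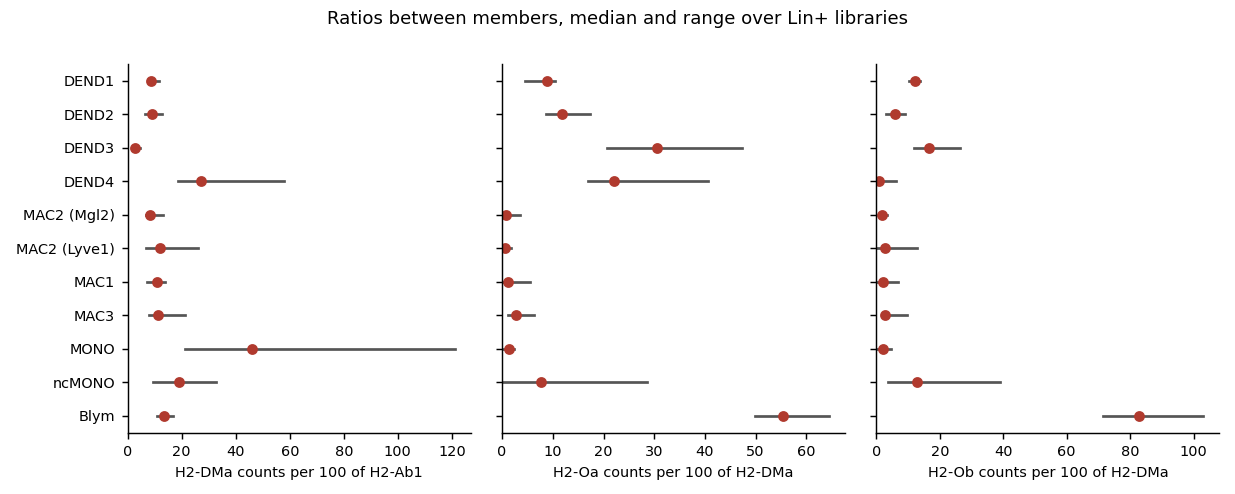
Counts of *H2-DMa* per 100 counts of *H2-Ab1* (left), of *H2-Oa* per 100 of *H2-DMa* (middle) and of *H2-Ob* per 100 of *H2-DMa* (right), as median (points) and range (lines) over Lin+ libraries with at least 30 counts of the denominator. Blym stands apart for *H2-Oa* (55.4) and *H2-Ob* (82.9) per *H2-DMa*, and DEND3 is lowest for *H2-DMa* per *H2-Ab1* (2.80).

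Monocytes held low class II transcript levels. *H2-Ab1* in MONO was at 985.3 and 1286 CPM at RT, 891.3 and 1179 CPM in COLD and 972.1 and 549.4 CPM in CL. The share of cells with a count of it was 11% to 40.0%, against 7.44% to 31.9% of neutrophils, at median counts per cell of 2469 to 4684 and 698.8 to 1735. After thinning to 1000 counts it was 9.22% to 23.6% in MONO and 11.9% to 35.2% in neutrophils, of which 8 to 352 per library were deep enough. The thinned shares overlapped, while the CPM of MONO in COLD lay above that of neutrophils, so no order is read from the shares. The part of RNA from other cells in the MONO counts was not tested. *H2-DMa*, by contrast, was at 396.7 and 453.2 CPM at RT, and MONO had the highest *H2-DMa* per 100 *H2-Ab1* of the types in the plot of ratios (median 46.1, range 21.3 to 121). Of 7 members tested none was called in COLD by edgeR (1 with an unadjusted p under 0.05) or DESeq2, against 0.147% of all genes, and none in CL (4 with an unadjusted p under 0.05, DESeq2 none), against 0.0737%. In the fit with the Adrb1 line, *Ciita* was called lower (log2 difference -1.28, edgeR adjusted p = 0.042, 4.22% of all genes called lower), but not by DESeq2. In that line *Ciita* in MONO was at 42.5 and 32.2 CPM in the version 3 RT libraries and 9.20 and 8.55 CPM in COLD. At the finer clustering a further cluster was named MONO, and *H2-Ab1*, *H2-Aa* and *H2-Eb1* were then called higher in COLD (log2 differences 0.887, 0.855 and 0.897).

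Ordered by median *H2-Ab1* over libraries of all treatments, the Lin+ types ran from DEND1 (15200 CPM) and DEND2 (14580) through MAC2 (Mgl2) (10380), DEND3 (7582), MAC3 (5461), Blym (5110), MAC2 (Lyve1) (3348), MAC1 (2504) and DEND4 (2256) to MONO (845), non-classical monocytes (803), neutrophils (502), NK cells (442) and T cells (388). None of the 13 neighbouring pairs differed beyond the spread between libraries by an exact permutation test of sign flips within libraries (two-sided, smallest raw p = 0.0469, smallest adjusted p = 0.237). With the finer clustering 3 pairs passed. The spread between libraries in this test took in treatments and lines, and the pairs were set by medians of the same values. No likeness of neighbouring types within a group is therefore read from it. Within libraries some neighbours stood the other way: the mean log2 difference of MAC2 (Lyve1) minus MAC1 was -0.70 (SD 0.774, 8 libraries), and that of DEND1 minus DEND2 was -0.03 (SD 0.196, 9 libraries). At RT, MAC2 (Mgl2), at 12150 and 17360 CPM, lay above DEND1 in both C57 libraries. Over libraries, MAC2 (Lyve1) ran from 303.1 to 12510 CPM and Blym from 2688 to 6063 CPM.

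**Figure D5:**
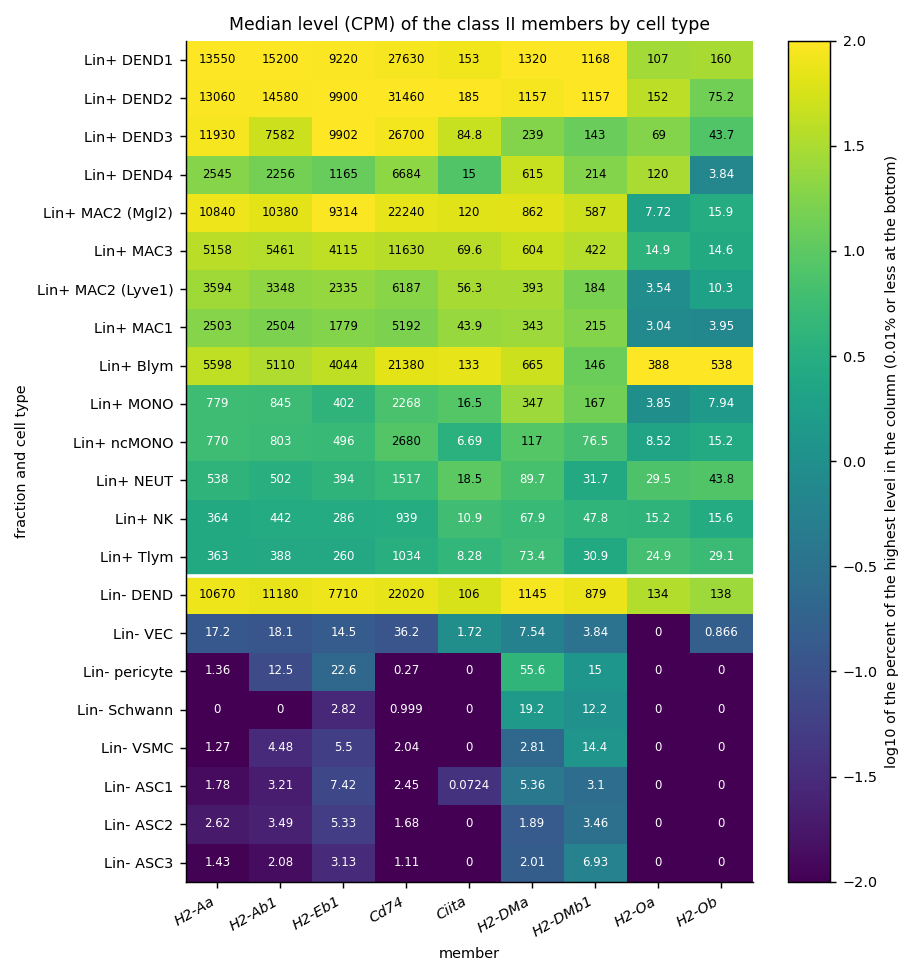
Median level of each member in each cell type over libraries, with the CPM printed in the cell and colour for the log10 of the percent of the highest level in its column. *H2-Ab1* is highest in DEND1 (15200 CPM), Blym holds *H2-Oa* (388 CPM) and *H2-Ob* (538 CPM), and the stromal classes at the bottom lie at or below 55.6 CPM for every member.

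The source of class II transcripts within the Lin+ fraction differed between the groups. DEND held 36.7% and 27.9% of all *H2-Ab1* counts at RT and 71.6% and 73.0% in COLD. MAC held 40.9% and 46.7% at RT and 18.9% and 15.7% in COLD. For *H2-Oa*, Blym held 60.0% and 62.8% at RT and 9.71% and 15.4% in COLD, and DEND 27.3% and 21.7% and then 76.9% and 70.9%. Over all Lin+ cells *H2-Ab1* was at 5706 and 7274 CPM at RT and at 7351 and 7841 CPM in COLD, so the lower level in MAC was not visible in the whole fraction. These shares follow the cells that were sorted and captured, and numbers of cells in the tissue were not measured.

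In the Lin- fraction the class II transcripts sat in a small DEND cluster of 820 cells. It held 85.2% to 99.3% of all Lin- *H2-Ab1* counts, at a median of 11180 CPM (3328 to 19700 over 10 libraries). *H2-Ab1* in it was at 13360 and 19700 CPM at RT, 15320 and 17040 CPM in COLD and 14170 and 8994 CPM in CL, overlapping between groups. No member was called in COLD by edgeR (none with an unadjusted p under 0.05) or DESeq2, against 0.233% of all genes. Over all Lin- cells *H2-Ab1* was at 141.2 and 247.2 CPM at RT and at 375.5 and 458.4 CPM in COLD.

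Endothelial cells carried class II transcripts at a low level, with no member called in COLD or CL. *H2-Ab1* in VEC was at 55.7 and 65.6 CPM at RT, 40.8 and 12.6 CPM in COLD and 16.1 and 11.4 CPM in CL. *H2-Eb1* was at 49.6 and 62.7 CPM at RT, 19.1 and 3.34 CPM in COLD and 14.7 and 13.8 CPM in CL. Over all VEC cells every treated library lay below both RT libraries for both genes, an order that was not kept when cells with immune counts were left out, as described next. The low-count filter left 4 members to be tested in VEC, the chain genes and *Cd74*. The log2 difference of *H2-Ab1* was -1.19 in COLD (95% confidence interval -2 to -0.37) and -1.92 in CL (-2.81 to -1.03). None was called by edgeR (all 4 with an unadjusted p under 0.05 in each, smallest adjusted p 0.219 and 0.297) or DESeq2, and 0.0109% and 0% of all genes were called. A larger Lin- cluster of capillary character without a name (7563 cells, against 4087 in VEC) went the other way. Its log2 difference of *H2-Ab1* was 1.63 in COLD and 1.09 in CL, neither of them called, as described below.

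In the fit with the Adrb1 line *H2-Eb1* was called lower in VEC in the cold (log2 difference -1.98, SE 0.426, edgeR adjusted p = 0.0434, 0.766% of all genes called lower), though not by DESeq2. *H2-Ab1* in VEC of that line was at 18.7 (WT) and 13.7 (KO) CPM at RT and at 23.9 and 17.4 CPM in COLD, so it did not share the order of the C57 libraries. Some VEC cells also held counts of the immune genes *Ptprc*, *Tyrobp*, *Fcer1g*, *Lyz2*, *Cd52*, *Coro1a* or *Laptm5*. These were 1.66% to 5.17% of VEC in each library. They held 73.1% of the *H2-Ab1* counts in RT replicate 1, 61.0% in COLD replicate 1 and 66.3% in CL replicate 1, but 0.194% in RT replicate 2. Without them *H2-Ab1* was at 15.5 and 67.4 CPM at RT, 16.9 and 13.3 CPM in COLD and 5.53 and 12.1 CPM in CL, so RT and COLD overlapped, and the highest value was that of RT replicate 2, the library with 72.0% of its barcodes over the mitochondrial limit. The part of RNA quality in this difference was not tested. Without that library, and with all VEC cells, *H2-Eb1* over all experiments differed by -1.92 (edgeR adjusted p = 0.0544). Without the cells with immune counts, the *H2-Ab1* difference in COLD was -1.17 (edgeR adjusted p = 0.68) and that of *H2-Eb1* over all experiments -1.82, no longer called (edgeR adjusted p = 0.14). *Cd74* was called in that fit instead (log2 difference -2.74, edgeR adjusted p = 0.0438). The share of VEC cells with an *H2-Ab1* count was 3.42% at RT over both libraries, against 0.444% of Schwann cells, at median counts per cell of 1248 and 997.7.

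Stromal cells were lower still. Median *H2-Ab1* over 10 libraries was 3.21 CPM in ASC1, 3.49 CPM in ASC2, 2.08 CPM in ASC3, 4.48 CPM in VSMC and 12.5 CPM in pericytes, and the highest of any library was 39.2 CPM in pericytes. Pericytes carried *H2-DMa* in every library, at 29.7 to 84.0 CPM (median 55.6), above the 8.43 CPM that was the highest in ASC1. *H2-DMa* in pericytes was at 52.8 and 84.0 CPM at RT, 70.1 and 82.5 CPM in COLD and 29.7 and 55.0 CPM in CL, overlapping between groups. No member was called in a stromal class in COLD or CL by edgeR (none with an unadjusted p under 0.05 in ASC1, ASC2, ASC3, VSMC or pericytes) or DESeq2. The background was 13.6% of all genes in ASC1, 1.23% in ASC2, 0.464% in ASC3, 0.565% in pericytes and 0.0942% in VSMC for COLD, and 1.15%, 0.238%, 0.0986%, 0.145% and 0% for CL. Between 1 and 6 members passed the low-count filter in these classes and none did in Schwann cells.

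A pair of Lin+ clusters without a name also carried class II transcripts. In the cluster led by *Retnla*, *H2-Ab1* was at 8573 to 11680 CPM at RT and 6151 to 6927 CPM in COLD. *Ciita* there was at 78.2 to 148.1 CPM at RT and 49.8 CPM in both COLD libraries, and it was the member called lower in COLD (log2 difference -1.40, edgeR adjusted p = 0.0465, 2.03% of all genes called lower). In a cluster of proliferating cells of mixed type, *Ciita* was at 117.8 to 146.3 CPM at RT, 94.8 to 128.3 CPM in COLD and 31.1 to 59.4 CPM in CL. It was lower in CL than at RT (log2 difference -1.81, edgeR adjusted p = 0.0492, 0.393% of all genes called lower). *Ciita* (1.5), *H2-Oa* (2.59) and *H2-Ob* (2.08) were higher in COLD than in CL in these cells, against 1.3% of all genes.

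Classes that should lack class II also gave calls. In neutrophils *H2-Ab1* (log2 difference -2.06) and *H2-Eb1* (-2.19) were lower in COLD, against 0.187% of all genes, and *H2-Aa* (-1.54) was lower in CL, against 1.05%. *H2-Aa* there was at 1485 and 1478 CPM at RT and at 518.6 and 468.4 CPM in CL. With the replicate block 3 members were lower in COLD and 4 in CL, against 14 and 52 of 2674 genes. In T cells 4 members were higher in the cold over all experiments, *H2-DMb1* (1.73), *H2-Ab1* (1.64), *H2-Aa* (1.43) and *H2-Eb1* (1.36), against 3.13% of all genes. These T cell calls were lost when cells with high doublet scores were removed.

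In a Lin- cluster of capillary character without a name, *H2-Ab1* was at 22.7 and 7.98 CPM at RT, 43.0 and 73.1 CPM in COLD and 36.8 and 37.8 CPM in CL. No member was called there by edgeR (4 of 4 tested with an unadjusted p under 0.05 in COLD, smallest adjusted p = 0.0782, 0.879% of all genes called). With the replicate block 1 was called higher in COLD, against 93 of 8531 genes.

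Loss of *Adrb1* in *Pdgfra*+ cells was compared with WT over all 10 libraries of each fraction. No member was called in any class by edgeR, nor by DESeq2, which was not run on NK cells, T cells, neutrophils or non-classical monocytes. No gene was called in MAC, DEND, MONO or Blym (0% of all genes). *H2-Ab1* differed by 0.46 on the log2 scale in MAC (95% confidence interval -0.367 to 1.29) and by -0.02 in DEND (-0.407 to 0.366). In MONO, 4 members had an unadjusted p under 0.05, the chain genes and *Cd74*, with *H2-Ab1* at 468.6 and 212.7 CPM in WT and 799.1 and 344.0 CPM in KO at RT and in COLD. Of the other Lin+ classes, DEND had *H2-Oa* higher in KO (0.48) with an unadjusted edgeR p under 0.05. NK cells had *H2-DMa* (-1.01) and *H2-DMb1* (-1.78) lower, and T cells *H2-Aa* (-0.70), also at an unadjusted p under 0.05. There was 1 library per genotype and temperature, so the spread in this comparison came mainly from the C57 libraries.

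Of 37 further genes of the pathway, 35 had a row in the matrices, and 34 were tested in MAC. In COLD 8 were higher and 7 lower there, against 17.6% and 17.5% of all genes, so both shares lay near the background. Among the higher were endosomal proteases that process the invariant chain and antigen: *Ctss* (log2 difference 2.00), *Ctsl* (2.25) and *Lgmn* (1.06), with *Ctsb* and *Ctsd*. *Ifngr2* (0.66), a subunit of the interferon-γ receptor, was also higher, as was *Cd274*. Lower were *Rfx5* (-1.22), the RFX subunit that binds class II promoters, and *Irf1* (-1.75), an activator of the *Ciita* gene, together with *Cd86*, *Cd83* and *Icosl*, of costimulation, and *Il10ra* and *Pou2af1*. *Cd80* (0.40) and *Cd40* (-0.44), also of costimulation, were not called. *Ctsb*, *Ctsd*, *Cd274* and the last 5 are named because they were called, after their values were seen. *Ifi30*, the lysosomal thiol reductase, is not analysed here. *Ctss* was at 1709 CPM at RT and 6640 CPM in COLD (means, SD 326.7 and 475.9, n = 2 each). MAC at RT and in COLD were mostly different types, so this difference, like that of the members, is between the classes as a whole.

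In DEND, 4 of 32 tested genes of the list were higher in COLD, among them *Lgmn* (1.45), *Ifngr2* (0.92) and *H2-Eb2* (1.06), against 4.44% of all genes. *Irf1* (-1.12) and *Ctsl* (-0.86) were lower, against 5.67%. *Ctsl* was thus called in opposite directions in the 2 classes. *Irf1* was lower in both. *Ctss* (0.47) and *Rfx5* (0.26) did not pass in DEND, and *H2-DMb2* passed in neither class (0.62 in DEND and -1.46 in MAC). In single types and clusters, *H2-DMb2* was called higher in DEND3 and lower in MAC3 and the cluster led by *Retnla* in COLD. In the fit with the Adrb1 line, where kit and temperature cannot be told apart, *Ctss* and *H2-DMb2* were called higher in DEND. With CL, *Ctss* (1.03), *Ctsd*, *Ctsb* and *Ctsl* were higher and *Irf1* (-1.21) and *Icosl* lower in MAC, against 3.57% and 2.59% of all genes, and none of the list was called in DEND by edgeR. The pair of CL libraries was at 3169 and 3870 CPM for *Ctss*, 2032 and 4111 for *Ctsd*, 5232 and 7138 for *Ctsb* and 709.6 and 2098 for *Ctsl*, each the lower value first, with no overlap with RT (highest 1940, 451.9, 2454 and 239.8 CPM). *Irf1* was at 63.4 and 111 CPM in CL and 200.7 and 206.4 CPM at RT, and *Icosl* at 3.87 and 10.3 CPM and at 19.7 and 26.3 CPM. None was called in MONO or Blym in either treatment by edgeR.

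The genes whose pattern was most like that of *H2-Ab1* over 132 sums of a Lin+ type in a library were, among 7843 genes outside the members, *Fgd2* (Pearson r = 0.81), *Cd83* (0.793), *Plekho1* (0.733), *Cadm1* (0.711) and *Atpif1* (0.709). Within the members r with *H2-Ab1* was 0.992 for *H2-Aa*, 0.985 for *H2-Eb1*, 0.979 for *Cd74*, 0.904 for *H2-DMb1*, 0.889 for *H2-DMa* and 0.828 for *Ciita*, but 0.383 for *H2-Ob* and 0.308 for *H2-Oa*. *Cxcl16* (0.704), *Prcp* (0.7), *Ccnd1* (0.69), *Cd40* (0.686) and *Lpcat1* (0.676) completed the 10 most like *H2-Ab1*. For *Ciita* the most similar were *Lpcat1* (0.712), *Fgd2* (0.709), *Plekho1* (0.694), *Cd83* (0.673) and *Swap70* (0.662). These sums share libraries and depth, and the values describe the pattern only.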

How the data were processed

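Tissue of pooled mice was digested, sorted into Lin+ and Lin- cells and profiled with the 10x Genomics 3′ kit. The authors aligned reads to mm10 and counted them with Cell Ranger 3.0.1, then corrected each library for ambient RNA with SoupX. The deposited values are these estimated counts, not whole because of the correction, and were rounded after summing. Ambient class II RNA that SoupX left or removed in excess would shift low levels more than high ones.

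Cells were kept under 10% mitochondrial counts and under 15000 counts, with under 4000 genes in Lin+ and over 100 in Lin-. Each fraction was log-normalized to 10000 counts and clustered in scanpy 1.11.5 (2000 variable genes, 30 components, 30 neighbours, Leiden resolution 1). The members, pathway genes, marker genes and mitochondrial genes were left out. Before clustering the components were aligned over 6 cohorts, after the scheme of Harmony. A cohort held all C57 libraries of 1 replicate number, or a single Adrb1-line library. In that line RT and COLD were thus separate cohorts, and the effect of the alignment on the classes was not tested. Clusters were named from marker lists, and ASC1 was set by a 1.5-fold rule after the data were seen. A Lin+ cluster of stromal character, mostly of CL replicate 2, was left out. The doublet caller marked under 0.5% of cells in 15 of 20 libraries, so removal of the top 6% of cells by doublet score was an alternative and not the main setting.

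Counts were summed per library and class with at least 20 cells and tested with edgeR 4.0.16 (TMM, filterByExpr, quasi-likelihood, R 4.3.3) with Benjamini-Hochberg adjustment over all genes of the class. C57 groups were fitted together. Cold over all experiments included the Adrb1 line, with line as a term. Differences between classes were fitted with edgeR on class sums with the library as a block. DESeq2 1.42.0 was an alternative, run on MAC, DEND, MONO and Blym in Lin+ and on the named classes in Lin-. Pools of mice are the replicates, and intervals and limits cover counting error only where they rest on counts of 1 library. Depth per library is given with the results.

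Counts were simulated for COLD against RT with 100 genes changed 2-fold and 100 changed 4-fold in each class, in random directions. Recovery of 2-fold and 4-fold changes was 43% and 81% in MAC (11647 genes), 51% and 94% in DEND (9560) and 40% and 78% in Blym (8120). Of the calls, 8.15%, 9.38% and 9.92% were false. In the real MAC comparison 35.1% of genes were called, far more than were changed here, so these rates do not carry over to it.

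The methods merged libraries of the same replicate experiment, so replicate numbers may pair samples. The main fits did not use this pairing, and the replicate block was an alternative. Deviations of same-numbered libraries from their group means had a median correlation of 0.159 in Lin+ (-0.0605 to 0.413, 9 of 12 over 0.1). In Lin- it was 0.0664 (-0.167 to 0.423, 9 of 24 over 0.1). Between RT and COLD the correlation was 0.376 in MAC and 0.413 in DEND. Between RT and CL it was -0.00614 and -0.0605, and between COLD and CL 0.164 and 0.143. Which fit is the better for CL was not tested.

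All 9 members are named whatever they did. Of the pathway list, genes called in at least 2 classes in a contrast and *Ctss*, *Ifi30*, *Rfx5* and *H2-DMb2* are named, as are the 10 and 5 genes most like *H2-Ab1* and *Ciita*. A gene of the list that is counted but not named is not reported here. The members and lists were chosen with earlier results of these data known. Promoter sequences and gene positions are from RefSeq (GRCm38.p6) and the GRCm38 annotation.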

Additional observations from a re-analysis of the deposited data

Results flagged for a closer look

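These values were picked out because the response of one class differed from that of another in a test of the difference itself (edgeR with the library as a block, adjusted over all genes). All are differences of log2 fold changes, and a positive value means that the member was lower in MAC, relative to RT, than in the other class.

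For COLD against RT, DEND minus MAC was 2.45 for *H2-Aa*, 2.41 for *H2-Ab1* and 2.7 for *H2-Eb1*, the chain genes. It was 2.29 for *Cd74*, 2.39 for *Ciita*, 1.64 for *H2-DMa*, 1.81 for *H2-DMb1* and 1.73 for *H2-Ob*, with adjusted p from 6.72e-05 to 0.00127. *H2-Oa*, at 1.14, missed the threshold (adjusted p = 0.0518).

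For CL against RT, DEND minus MAC was 1.58 for *H2-Aa*, 1.69 for *H2-Ab1*, 1.83 for *H2-Eb1* and 1.58 for *Cd74*. It was 1.29 for *Ciita*, 1.08 for *H2-DMa* and 1.33 for *H2-DMb1*, with adjusted p from 0.00706 to 0.0394. For CL, leaving out RT replicate 2 left none of the 9 past the threshold by edgeR. Leaving out RT replicate 1 left 3, CL replicate 1 left 5, and CL replicate 2 gave 9. For COLD, 8 members passed without RT replicate 2.

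For COLD against RT, MONO minus MAC was 2.04 for *H2-Aa*, 1.92 for *H2-Ab1*, 2.31 for *H2-Eb1*, 1.93 for *Cd74*, 1.36 for *H2-DMa* and 1.31 for *H2-DMb1*, with adjusted p from 0.000139 to 0.019. Without 1 library at a time, 4 to 7 members passed. The share of MONO cells with an *H2-Ab1* count overlapped that of neutrophils, and the part of RNA from other cells in it was not tested. In CL no member differed between MONO and MAC by edgeR (5 with an unadjusted p under 0.05), and 7 did without CL replicate 2. VEC minus ASC1 gave no call among 6 members in either contrast, with 6.09% and 0.592% of all genes called.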

How the results depend on the processing

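Of 155 counts of called members under alternatives, 130 stayed within 1.5 times the main count and 25 moved. The Lin+ counts are over MAC, DEND, MONO and Blym as classes, and leave out the single types, the clusters without a name and the other classes, where members were also called. In these 4 classes the 8 calls of COLD against RT became 4 without RT replicate 2 (4 to 9 without 1 library at a time). The 0 calls of CL against RT became 7 with the replicate block, 8 with no low-count filter and 9 without CL replicate 2 (0 to 9). The 0 calls of COLD against CL became 1 with the replicate block, 6 with no filter and 8 without CL replicate 1 (0 to 8). KO against WT gave 1 call with no filter. In Lin-, over ASC1 to ASC3, VEC, pericytes, VSMC, Schwann cells and DEND, with no filter COLD against RT gave 6, CL against RT 4, COLD against CL 1 and cold over all experiments 6 calls. Without 1 library at a time COLD against RT and CL against RT gave 0 to 1 (1 without COLD replicate 1 and without CL replicate 2). Cold over all experiments gave 0 to 2 in place of 1, with 0 without RT replicate 2 or any single Adrb1-line library and 2 without COLD replicate 1. It gave 2 with high doublet scores removed and 0 at resolution 2. The 0 neighbouring pairs in the order of *H2-Ab1* became 3 at resolution 2, and the 21 class differences ranged from 13 (without RT replicate 2) to 33 (without CL replicate 2). The replicate block changed no other of these counts by over 1.5 times. The causes were not tested.

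For the single members followed, mostly those called in the fits as reported, 531 alternative values kept direction and call, 142 kept direction without the call, 3 passed where the main value had not, and 16 changed sign. *H2-Ab1* in DEND with CL was -0.0129 without RT replicate 1 and -0.00458 without CL replicate 2 (-0.0129 to 0.274 without 1 library at a time). In MONO at resolution 2, where a further cluster was named MONO, COLD gave 0.887 for *H2-Ab1*, 0.855 for *H2-Aa* and 0.897 for *H2-Eb1*, and CL gave 0.179, 0.157 and 0.109. In MONO without COLD replicate 1, *H2-Aa* was 0.0452 and *H2-Eb1* 0.173, and without RT replicate 2 *H2-Eb1* was 0.0415 (-0.467 to 0.0452 and -0.611 to 0.173 without 1 library at a time). In DEND4 at resolution 2, COLD gave 0.345 for *H2-Ab1* and 0.511 for *H2-Eb1*, and COLD against CL 0.946 for *H2-Eb1*. In T cells, cold over all experiments gave -0.104 for *H2-Ab1* and -0.308 for *H2-Aa* with high doublet scores removed.

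The fit without the barcodes shared by the CL replicate 2 libraries was added after the data were seen. Counts of *H2-Oa* and *H2-Ob* in monocytes, and of most members in stromal cells, were low, so small differences there were not detectable at this depth.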
